A study of Mus musculus with 3 samples.

Results

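The 9 genes described here encode core and accessory subunits of variant Polycomb repressive complex 1 (PRC1), namely Rybp, Yaf2, Pcgf1, Pcgf3, Pcgf5, Pcgf6, Ring1, Rnf2 and Kdm2b. They were taken by name, as 9 of 22372 protein-coding genes of the mm9 mouse annotation. A binding site was given to a gene when its summit, the base with the highest signal, lay in the gene body or within 100 kb of it. A site was also given to the gene that owned the nearest protein-coding transcription start. These rules gave 8 ETO2 sites of the 3192 in the series.

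ETO2, the product of Cbfa2t3, is a co-repressor that does not bind DNA by itself and is brought to DNA by partners such as SCL and GATA factors. Its binding was measured by chromatin immunoprecipitation and sequencing (ChIP-seq) in FLK1+ mesoderm, from which blood and endothelium arise. The 3 samples were 2 ETO2 ChIP libraries, replicate 1 and replicate 2, and 1 input, which is chromatin sequenced with no antibody. All came from embryoid bodies of wild-type ES cells of strain C57Bl/6 X Sv129, labelled day 4 in the samples and day 3.5 in the series' design text. The design text describes 2 differentiations as the source, while both peak lists carry the same ChIP number. No genotype or treatment was compared, and embryoid bodies are an in vitro model of the embryo. The expression of the genes was not measured in these libraries.

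PRC1 complexes are built around RING1 or its paralogue RNF2 (also called RING1B), the E3 ligases that attach ubiquitin to histone H2A. Each complex holds a single PCGF protein, and this subunit names the subcomplex. Variant complexes carry RYBP or YAF2 in place of the CBX proteins of canonical PRC1, and KDM2B takes the PCGF1 complex to unmethylated CpG islands. Loss of these subunits in ES cells and embryos disturbs the silencing of developmental genes.

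ETO2 sites were found at 3 of the 9 genes, namely Rybp with 5 sites, Pcgf5 with 2 and Kdm2b with 1 (33.3%, 95% Wilson interval 12.1 to 64.6%). By the same rules 27.8% of all protein-coding genes had a site, so the share of the 9 genes was near the background. Sites called in both replicates occurred at 2 of the 9, compared with 11.1% of all genes. Yaf2, Pcgf1, Pcgf3, Pcgf6, Ring1 and Rnf2 had none. Peaks of both replicates made up 3 of the 8 sites (37.5%, interval 13.7 to 69.4%), which were 2 sites of Rybp and 1 of Pcgf5. The other 5 came from replicate 1 only, and no site came from replicate 2 only. Over the whole series 31.4% of the 3192 sites (1002) had peaks in both replicates, 41.7% in replicate 1 only and 26.9% in replicate 2 only. The interval for the 5 replicate 1 only sites (62.5%) was 30.6 to 86.3% and held the series' share. Intervals here and elsewhere cover counting error only. No test was made on single sites, which have at most 2 values, taken against different backgrounds.

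The sequences of 6 sites are shown, with the GATA motif or without it. Each is the 100 bp around the replicate 1 summit, on the plus strand of mm9. The first 3 are the sites called in both replicates, and the others were chosen after their values were seen. The Rybp sites 57.6 kb beyond the 3′ end and 1124 bp upstream of the start are not shown. The latter held no GATA motif in its 100 bp, so Rybp had sites of both kinds. In the Rybp and Pcgf5 windows capitals mark the motif WGATAR (with A or T for W and A or G for R), which GATA factors bind, written as TTATCT where it lies on the minus strand. In the windows 44.3 kb upstream of Rybp and 50.2 kb upstream of Pcgf5 the capitals CAG mark, in addition, the E-box half-site CTG of the minus strand. In the Kdm2b window capitals mark CpG dinucleotides.
Rybp, 276 kb downstream of the start, chr6:99961870-99961969: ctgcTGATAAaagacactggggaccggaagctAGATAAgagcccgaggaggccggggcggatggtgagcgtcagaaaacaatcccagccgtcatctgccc
Rybp, 247 kb downstream, chr6:99990593-99990692: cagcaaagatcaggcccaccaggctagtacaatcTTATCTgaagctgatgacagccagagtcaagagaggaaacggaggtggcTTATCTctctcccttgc
Pcgf5, 105 kb upstream, chr19:36348140-36348239: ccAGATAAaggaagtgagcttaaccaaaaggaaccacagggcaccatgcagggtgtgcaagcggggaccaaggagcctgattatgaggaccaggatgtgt
Rybp, 44.3 kb upstream, chr6:100281694-100281793: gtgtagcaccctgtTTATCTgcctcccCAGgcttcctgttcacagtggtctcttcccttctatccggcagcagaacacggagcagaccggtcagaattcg
Pcgf5, 50.2 kb upstream, chr19:36403351-36403450: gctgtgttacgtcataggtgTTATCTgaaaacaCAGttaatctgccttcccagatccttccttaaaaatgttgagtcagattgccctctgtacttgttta
Kdm2b and Orai1, 0.338 kb inside Orai1, chr5:123465371-123465470: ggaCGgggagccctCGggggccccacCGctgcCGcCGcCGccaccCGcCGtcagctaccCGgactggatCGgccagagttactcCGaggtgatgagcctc

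RYBP binds RING1 or RNF2 directly and also recognises ubiquitinated H2A. Its gene (ENSMUSG00000072872.2) lies at chr6:100178560-100237435 on the minus strand of mm9, and no other protein-coding gene overlaps its body or the 100 kb to either side. All 5 sites had the Rybp start as their nearest protein-coding start, and all were intergenic. Downstream, beyond the 3′ end, lay 3 of them, and the other 2 lay upstream.

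The strongest site of the 8, at chr6:99990434-99990848, lay 246.8 kb downstream of the Rybp start and 187.9 kb beyond the end of the gene. Its fold enrichment, the ChIP signal at the summit over the local background, was 13.6 in replicate 1 and 8.24 in replicate 2. The summits held 70 and 50 ChIP fragments, and the −log10 q of the peaks was 70.2 and 27.0. It ranked 103rd and 129th by fold enrichment among the 1002 sites called in both replicates, within the top 10.3% and 12.9%. The summits of the replicates were 13 bp apart.

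A further site called in both replicates, at chr6:99961764-99962068, lay 28.7 kb farther from the gene, 275.5 kb from the Rybp start. Its fold enrichment was 9.67 and 7.38 with 46 and 45 fragments, and its −log10 q was 37.3 and 22.1. Ranks of 250 and 206 placed it in the top 25.0% and 20.6% of the sites called in both replicates, and its summits agreed within 3 bp. The next protein-coding start was that of Prok2, 285.5 kb away on the other side, so this site lay almost midway between the starts of the genes. It lay 216.6 kb from the body of Rybp. For the stronger site the Prok2 start was 314.3 kb away, compared with 246.8 kb for Rybp.

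The 3 sites closer to Rybp were called in replicate 1 only. Their fold enrichment spanned 4.77 to 5.47, near the replicate 1 median of 5.24 over its 2335 peaks. The closest, at chr6:100238389-100238718, lay 1124 bp upstream of the start with 40 fragments, a fold enrichment of 5.47 and a −log10 q of 19.3. The local background there was 2.22 times the genome level. The site at chr6:100120743-100121013, 57.6 kb beyond the 3′ end, had 30 fragments and a fold enrichment of 4.77, and the site at chr6:100281650-100281850, 44.3 kb upstream, had 20 fragments and 5.44. No library other than replicate 1 held a peak within 100 kb of Rybp.

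How often replicate 1 peaks of like depth were found again in replicate 2 sets what a missing peak says. The site 1124 bp upstream of Rybp had no replicate 2 peak, while 69.2% of the 130 replicate 1 peaks within 2 fragments of its depth did (interval 60.8 to 76.5%). Those peaks were matched on fragments alone and not on the local background, which at this site was 2.22 times the genome level. For the site with 30 fragments the share was 47.2% of 326 peaks, and for that with 20 it was 15.9% of 511 peaks, so at the lowest depth a missing partner was the usual outcome. The replicate 2 signal below its peak threshold was not analysed here.

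**Figure D1:**
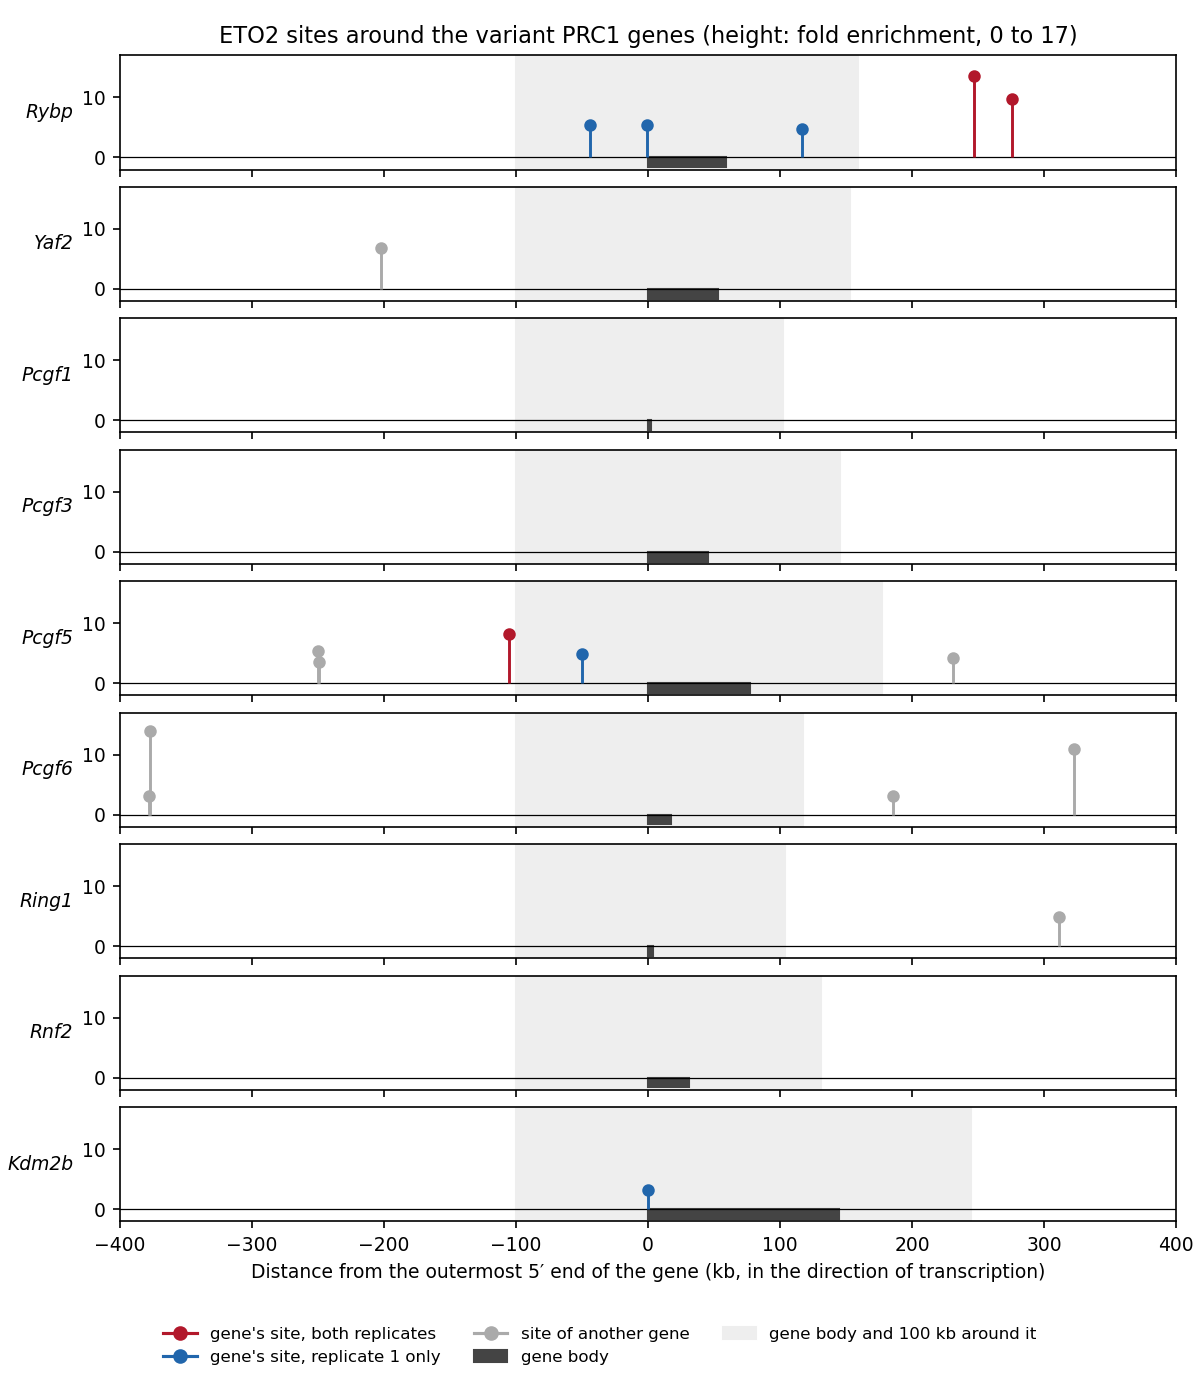
Distance from the 5′ end of each gene in kb along its transcription (x) and fold enrichment (y, replicate 1, or replicate 2 where only that library had a peak) of the ETO2 sites around the 9 genes. Red marks sites called in both replicates, blue those in replicate 1 only, and grey sites of other genes. Both red sites of Rybp stand 247 and 276 kb downstream with fold enrichments of 13.6 and 9.67, outside the grey window of 100 kb, and 6 genes have no red or blue mark.

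PCGF5 is the PCGF subunit of a variant complex that it shares in part with PCGF3. Its gene (ENSMUSG00000024805.8) lies at chr19:36453557-36530682 on the plus strand. Both of its ETO2 sites were intergenic, lay upstream and had the Pcgf5 start as the nearest. The site called in both replicates, at chr19:36348001-36348357, was 105.4 kb upstream of the start, just outside the window of 100 kb, and therefore belonged to Pcgf5 by the nearest start alone. Its fold enrichment was 8.26 and 6.09, the fragments numbered 38 and 39 and the −log10 q was 27.0 and 15.9. It ranked 358th and 364th of the 1002 sites called in both replicates, so it was weaker than both such sites of Rybp in either library. Its summits were 54 bp apart, and the next gene, Ankrd1, started 153.9 kb away.

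The other Pcgf5 site, at chr19:36403254-36403479 and 50.2 kb upstream, was called in replicate 1 only with 21 fragments, a fold enrichment of 4.86 and a −log10 q of 8.78. Of 514 replicate 1 peaks of like depth, 17.3% had a partner in replicate 2. It lay 55.2 kb from the Pcgf5 site called in both replicates.

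KDM2B binds unmethylated CpG through its CXXC domain and demethylates histone H3. Its gene (ENSMUSG00000029475.11) spans chr5:123320677-123465089 on the minus strand and meets Orai1, which encodes a calcium channel, head to head. The single site at chr5:123465299-123465533 fell in the first coding exon of Orai1, 338 bp from the Orai1 start. It lay 332 bp outside the annotated end of Kdm2b, but 2.54 kb from the nearest of the 9 protein-coding starts of Kdm2b. It therefore counted for Kdm2b through the window of 100 kb and for Orai1 through the nearest start. When the outermost 5′ end of each gene was used instead, its nearest gene became Kdm2b.

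This site was the weakest of the 8 and was called in replicate 1 only. Its fold enrichment of 3.19 ranked 2225th of 2335 replicate 1 peaks, with 24 fragments over a background 2.32 times the genome level and a −log10 q of 4.98. Of 469 replicate 1 peaks of like depth, 25.4% had a partner in replicate 2 (interval 21.6 to 29.5%). The 500 bp around the summit were 74% G or C and held 59 CpG dinucleotides, compared with 4 to 19 around the other 7 sites. Among all 286 sites called in replicate 1 only and within 2 kb of a start, the median was 33 CpG dinucleotides and 23.4% held WGATAR, compared with a median of 5 and a share of 54.4% over all sites. What part CpG content played in the call was not tested.

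**Figure D2:**
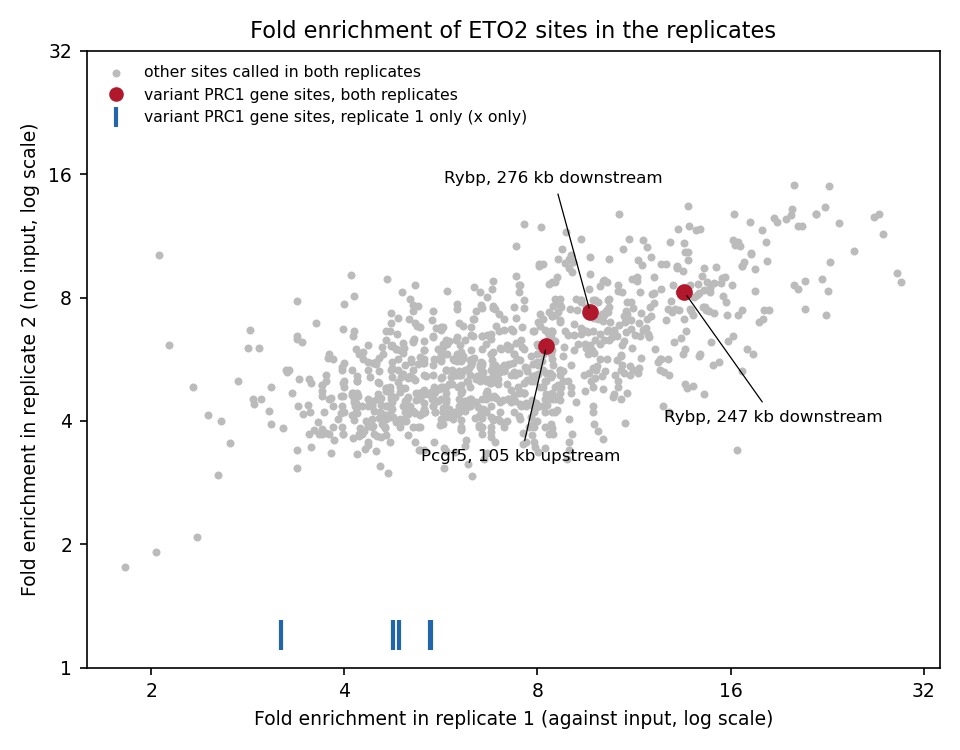
Fold enrichment in replicate 1 (x, against input) and replicate 2 (y, without input), both on log scales, for the 1002 sites called in both replicates. Red points are the Rybp and Pcgf5 sites, at 13.6 and 8.24, 9.67 and 7.38, and 8.26 and 6.09, in the upper part of the cloud, and blue ticks give the replicate 1 values (3.19 to 5.47) of the 5 sites with no replicate 2 peak.

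The other 6 genes had no ETO2 site under either rule. RING1 (Ring1, chr17:34157737-34161625) and RNF2 (Rnf2, chr1:153316536-153347953) are the catalytic subunits. The closest sites to their bodies were 307.3 kb away from Ring1, in replicate 2 only, and 549.4 kb from Rnf2, in replicate 1 only. The closest sites called in both replicates were 997.4 kb and 1584 kb away, so neither ligase gene had ETO2 binding nearby that was found in both libraries.

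YAF2, the paralogue of RYBP, had its gene (Yaf2, chr15:93114709-93167366) 202.7 kb from the closest site, which was called in replicate 1 only, with Prickle1 as its nearest start. Its closest site called in both replicates was 407.5 kb away. The paralogues thus differed in these peak lists, with 5 sites for Rybp and 0 for Yaf2. The genome nearest to the start of each differed too, at 472.4 kb for Rybp and 61.6 kb for Yaf2.

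The remaining PCGF genes, each of which names a variant subcomplex, also had no site. Pcgf6 (chr19:47108109-47125380) had a replicate 1 only site at 168.5 kb and a site of both replicates at 305.3 kb. Pcgf3 (chr5:108890251-108935995) had its closest site 702.0 kb away and Pcgf1 (chr6:83028380-83030841) 962.5 kb away, both called in both replicates. By the rule itself, the closest site of each of these 6 genes had another gene's start as its nearest. A missing peak says that no signal passed the peak threshold at this depth, not that ETO2 was absent.

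Against all protein-coding genes, the shares of the 9 genes were as follows. By the nearest start, 2 of the 9 (22.2%, interval 6.32 to 54.7%) had a site, namely Rybp and Pcgf5, compared with 9.61% of all genes. The same 2 had a site called in both replicates by the nearest start, compared with 3.75%. Within 100 kb of the gene body, 3 of the 9 had a site, compared with 27% of all genes. None had a site of both replicates there, an upper interval bound of 29.9%, compared with 10.7%. All 4 background shares lay within the intervals of the 9 genes except the share for sites of both replicates by the nearest start. That exception rests on 2 genes and is not a test, because the genes were chosen with earlier results of these data known. The background was also not matched for the length of genome nearest to a start, which was large for Rybp and Pcgf5. Of genes with 200 to 400 kb, 23.9% had a site by the nearest start, and of those with 400 to 800 kb 27.5%.

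Rybp was the member with a count that few genes reached. At least 5 sites by the nearest start were held by 0.228% of genes, and 30 genes had more sites than Rybp. At least 2 sites called in both replicates were held by 0.532% of genes. The start of Rybp was the nearest over 472.4 kb, more than for 95.2% of genes, against a median of 46.5 kb. Of the 895 genes with 400 to 800 kb, 27.5% had a site, with a mean of 0.454 sites. Rybp had 1.06 sites per 100 kb of this span and Pcgf5, with 232.7 kb, had 0.859, beside the genome's 0.120 per 100 kb. All other members had 0. These 2 genes are given because they had sites, so values above the genome's were fixed by that choice.

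**Figure D3:**
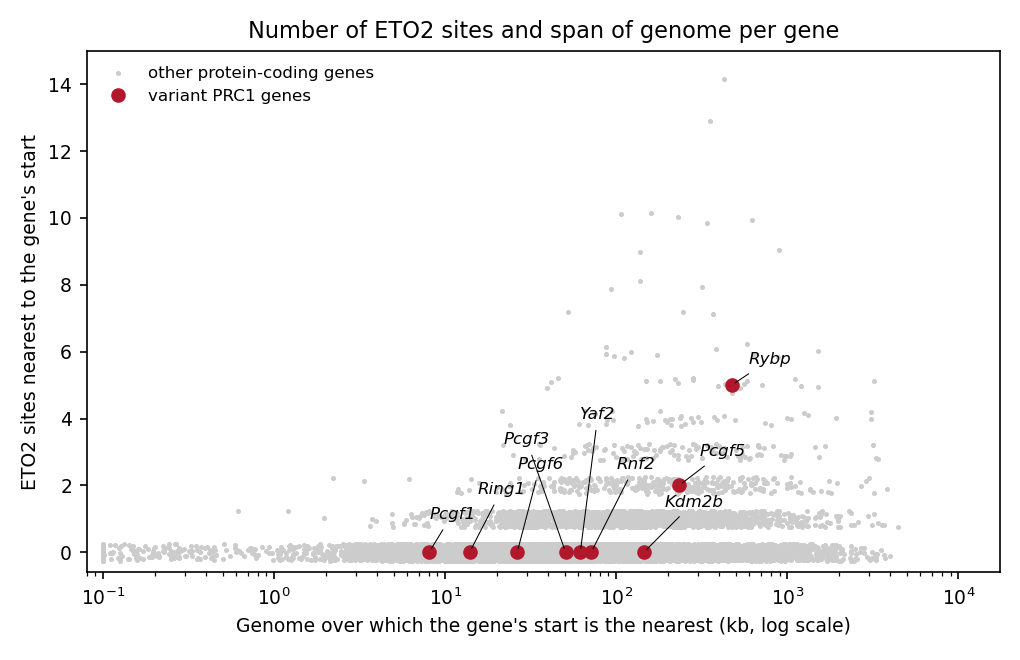
Number of ETO2 sites (y) against the length of genome, in kb on a log scale, over which a gene's start was the nearest (x), for all protein-coding genes (grey, with small vertical offsets for display, and lengths under 0.1 kb drawn there) and the 9 genes (red). Rybp stands at 472 kb with 5 sites and Pcgf5 at 233 kb with 2, while the other 7 lie at 0, and 4 genes with more than 15 sites are above the axis.

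Of the 6 genes without a site, Pcgf1, Ring1 and Pcgf6 had spans below the median, at 8.04, 13.9 and 26.3 kb, and Pcgf3, Yaf2 and Rnf2 had spans above it, at 50.6, 61.6 and 71.3 kb. Of genes with 20 to 50 kb 4.996% had a site, and of those with 50 to 100 kb 9.36%, so most genes of such spans had none. Kdm2b, at 144.6 kb, had no site by the nearest start, as did most genes with 100 to 200 kb, of which 15.95% had one.

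WGATAR occurred in the 100 bp around the summit of 6 of the 8 sites (75%, interval 40.9 to 92.9%). It occurred in 0 of the 16 windows of equal length centred 500 bp to either side of these summits. Over all 3192 sites the share was 54.4%, with 17.2% in the flanks. The share was 72.5% for sites called in both replicates and 57.8% in replicate 1 only, the classes of the 8 sites. In replicate 2 only it was 27.9%. The shares over all sites and in the classes of the 8 sites lay within the interval of the 8. The sites without WGATAR were those next to starts, at Kdm2b and 1124 bp upstream of Rybp. In a window of 200 bp the latter held WGATAR too, and the Kdm2b site did not.

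All 3 sites called in both replicates held WGATAR (interval 43.9 to 100%), and held it at the replicate 2 summit as well. Of the 1002 such sites in the series 72.5% held it, a share within that interval. Rybp had a pair of matches at both of its sites. As the sequences above show, they were TGATAA and AGATAA on the plus strand at the far site, centred 43.5 and 15.5 bp to the left of the replicate 1 summit. At the stronger site AGATAA lay on the minus strand on either side of the summit, 13.5 bp to the left and 35.5 bp to the right. The single AGATAA of the Pcgf5 site lay 45.5 bp to the left of its replicate 1 summit. Among the 5 sites of replicate 1 only, 3 held WGATAR, against 57.8% in that class.

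The composite motif of SCL and GATA factors, CTG followed after 8 to 10 bases by GATA on one strand, occurred in 2 of the 8 sites (25%), compared with 766 of all 3192 sites. Both were replicate 1 only sites, 44.3 kb upstream of Rybp and 50.2 kb upstream of Pcgf5, and both had the same arrangement, with CTG 8 bases from the GATA of an AGATAA on the minus strand. None of the 3 sites called in both replicates held it (interval 0 to 56.1%), compared with 36.7% of such sites in the series, which lies within that interval. The complete E-box CANNTG occurred in 1 of the 8 (interval 2.24 to 47.1%), the far downstream site of Rybp, compared with 45.0% of all sites. Its form CAGCTG occurred in 0 of 8 (interval 0 to 32.4%), compared with 11.4%. Both series shares lay within these intervals.

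Motifs of other blood factors were counted in the same windows. The ETS motif, searched only in the form AGGAA, occurred in 5 of the 8 sites (62.5%), but also in 8 of the 16 flanks, and in 41.4% of all sites. Other forms of the ETS motif were not counted. The RUNX motif TGTGGT occurred in 1, the Pcgf5 site called in both replicates, where it overlaps an AGGAA by 1 base, compared with 10.6% of all sites. RATAGW, the letters of WGATAR in reverse order, searched as a control, occurred in 1 of the 8 and in 446 of all 3192 sites. All motifs were searched on both strands, the searches overlap (GATA is part of WGATAR and of the composite motif, and CAGCTG is a CANNTG), and a match describes the letters only.

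**Figure D4:**
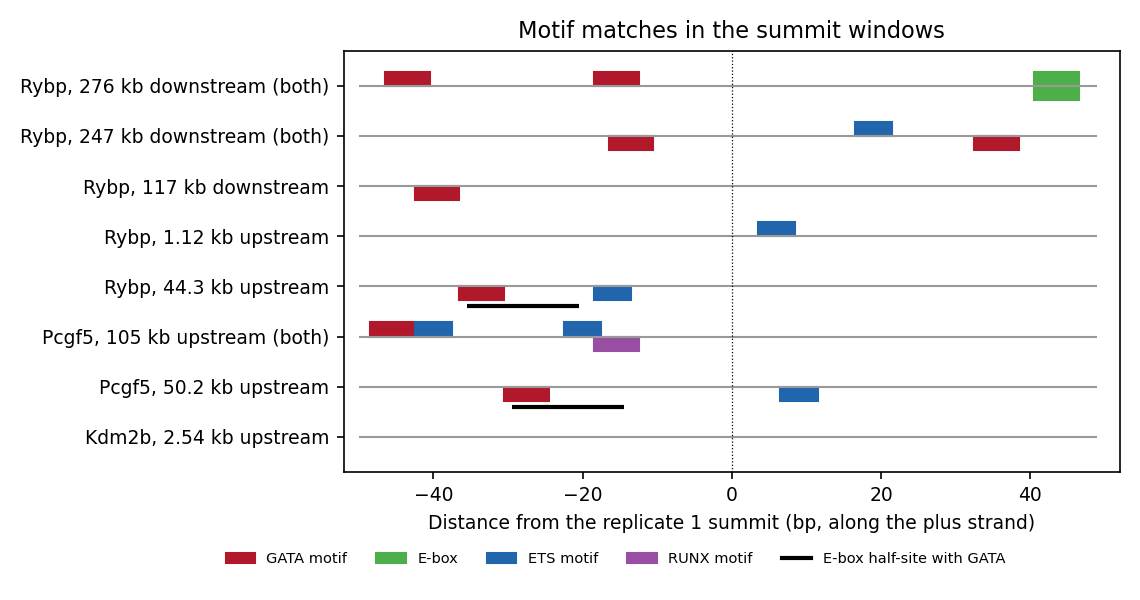
Motif matches along the 100 bp around the replicate 1 summit (x, bp from the summit along the plus strand) in the 8 sites, drawn above the line for the plus strand and below it for the minus strand, with the distance from the gene's start and "both" for sites called in both replicates. Red GATA motifs occur in 6 sites, with a pair in both shared sites of Rybp, the black bar of the composite motif occurs at 44.3 kb from Rybp and 50.2 kb from Pcgf5, and the Kdm2b window is empty.

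The rule did not use the repeat content at the sites, but it used gene bodies and starts. Whether a site was intergenic was therefore not independent of the rule, and 5 of the 8 sites belonged to Rybp, which has no other protein-coding gene within 100 kb. Of the 8, 7 were intergenic (87.5%, interval 52.9 to 97.8%), compared with 57.0% of all sites. All 8 lay in sequence that was wholly or mostly unique, with 96.1 to 100% of 24-base words found once in the genome. In the series 79.8% of sites had at least 80% of these words unique. The share was 95.5% for sites called in both replicates and 95.5% for those in replicate 1 only, the classes of the 8 sites. It was only 37.1% for those found in replicate 2 only, the library called without an input. Distance enters the rule itself and is given as a description. All 3 sites called in both replicates lay over 100 kb from the start, at 105.4, 246.8 and 275.5 kb, compared with 17.2% of the 1002 such sites, whose median distance was 25.7 kb. By the nearest start, such distances are possible only for genes with large spans, such as Rybp and Pcgf5.

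Other Polycomb genes were counted by the same rules. The list held 36 genes of canonical PRC1, further partners of variant PRC1, PRC2 and the H2A deubiquitinase PR-DUB. A site by the nearest start was held by 7 (19.4%, interval 9.75 to 35.0%), compared with 9.61% of all genes. Within 100 kb 12 had a site (33.3%), compared with 27%. Sites called in both replicates occurred within 100 kb at 5 (13.9%), compared with 10.7%. By the nearest start they occurred at 4 of the 36 (11.1%, interval 4.41 to 25.3%), namely Auts2, Bcor, Ezh1 and Jarid2, compared with 3.75%. By list these 4 were 2 of 10 partners of variant PRC1, 2 of 11 PRC2 genes, 0 of 12 genes of canonical PRC1 and 0 of 3 of PR-DUB. None of the 36 had 5 sites or more by the nearest start, compared with 0.228% of all genes. Auts2 alone had 2 called in both replicates, compared with 0.532%. Both background shares for at least 1 site by the nearest start lay below the intervals of the 36 genes. This is not a test, because the list was chosen with earlier results of these data known and the background was not matched for span.

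Auts2 and Bcor encode partners of PCGF5 or PCGF3 and of PCGF1, respectively. The strongest site of both replicates at Auts2, in an intron at chr5:132034337-132034901, had fold enrichments of 6.82 and 7.56 and held WGATAR, as did that of Bcor (chrX:11571113-11571540, 8.16 and 5.33), 86.3 kb from its start. EZH1 is a catalytic subunit and JARID2 an accessory subunit of PRC2. The Ezh1 site (chr11:101093473-101093795, 5.08 and 5.58), 5.84 kb from its start, held no WGATAR. The Jarid2 site (chr13:44597152-44597539, 5.06 and 7.92), 227.6 kb from its start, held none either. For the Rybp sites of both replicates this distance was 246.8 and 275.5 kb. In replicate 1 the fold enrichments of these 4 other Polycomb sites were below those of all 3 Rybp and Pcgf5 sites, the lowest of which was 8.26. In replicate 2 this order did not hold, as Auts2 (7.56) and Jarid2 (7.92) were above the Pcgf5 site (6.09) and the far site of Rybp (7.38).

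**Figure D5:**
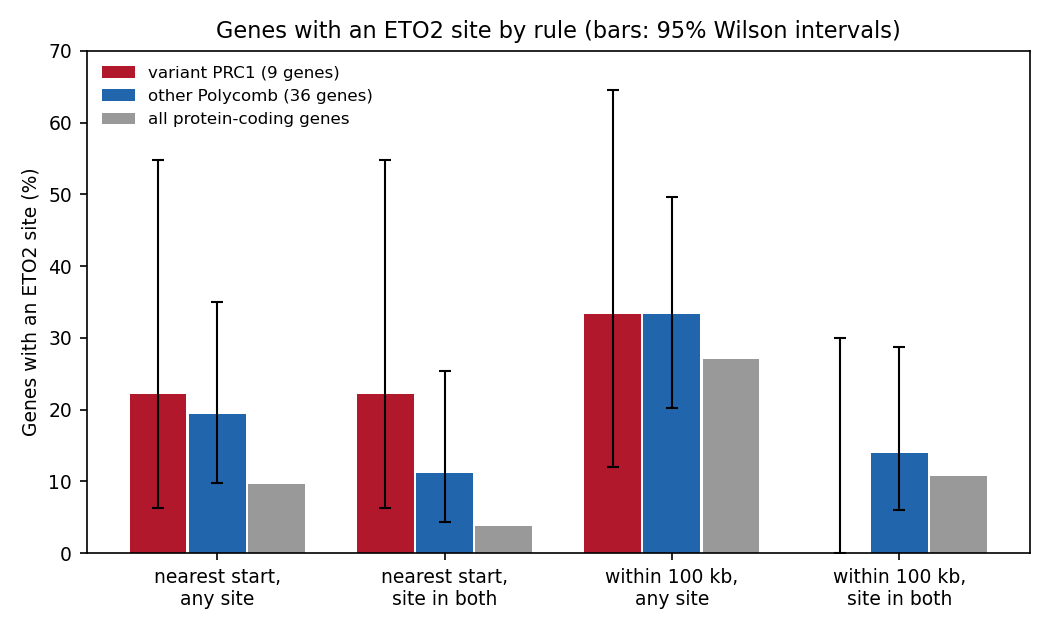
Share of genes with an ETO2 site (y, percent) under 4 rules (x) for the 9 variant PRC1 genes, the 36 other Polycomb genes and all protein-coding genes, with 95% Wilson intervals for the lists. The 9 genes stand at 22.2, 22.2, 33.3 and 0%, with intervals that overlap those of the other Polycomb genes under every rule.

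Replicate 1 supplied most of these sites. Without it, the replicate 2 list held 3 sites of the 9 genes, those of both replicates, and no gene had a site within 100 kb. Without replicate 2, all 8 sites stayed, with nothing to check them against.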

How the data were processed

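The authors sequenced read pairs from ETO2 ChIP and input, trimmed them (Trim Galore), aligned them to mm9 with Bowtie, keeping uniquely mapped pairs, removed duplicates, and called peaks with MACS2 2.0.10 for each ChIP library by itself (the input served as control for replicate 1, and replicate 2 had no control). Per peak, the deposited lists give a position, a summit, a score, a fold enrichment (a linear ratio to local background) and −log10 p- and q-values. The score repeats the q-value and was not used. A series-wide list of positions, without values, was not used, and the input enters only through replicate 1 values. Read totals are not given in the peak lists, so depth was taken at summits.

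From these lists, peaks overlapping by 1 bp or more were joined into sites (2335 and 1873 peaks, 3192 sites), and given the replicate 1 summit where there was one. Genes came from GENCODE vM1 and sequences from the genome of the same build. Whole fragments and local background at each summit were solved from the fold enrichment and −log10 p with a Poisson model, which fitted 100% of peaks within 0.01 on the −log10 scale, with replicate 1 fragments scaled by 1.34 to the input's depth. Medians were 27 fragments in replicate 1 (12 to 206) and 35 in replicate 2 (18 to 236). Like depth means within 2 fragments. Sites were called unique when 80% or more of the 24-base words within their summit window occurred once in the genome. Scripts (Python 3.11.15, numpy 2.4.6, scipy 1.17.1) were tested on simulated data.

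No test was run: shares carry 95% Wilson intervals. All 9 genes were named, with every site of both replicates and the strongest site of genes without one, and other Polycomb genes where a site of both replicates was nearest to their start. Values of further single sites were added after they were seen. The genes and lists were chosen with earlier results of these data known. Alternatives were stricter peaks, another sharing rule, other windows, outermost 5′ ends, 1 replicate alone, unique sequence and a wider motif window.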

Additional observations from a re-analysis of the deposited data

How the results depend on the processing

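The sites called in both replicates numbered 3 under every alternative that keeps both libraries, and Rybp and Pcgf5 kept a site by the nearest start under all alternatives run, joined by Kdm2b with outermost 5′ ends. At a fold enrichment of 5 or more, the 8 sites became 5 and the genes with a site within 100 kb fell from 3 to 1, Rybp. Leaving out a replicate gave 3 to 8 sites, 0 to 3 genes within 100 kb and WGATAR in 75 to 100% of the genes' sites, the lower counts being those without replicate 1. At a −log10 q of 5 or more the Kdm2b site (4.98) was lost, and with windows of 20 or 50 kb Pcgf5 had no site in the window. The background moved with the same choices, by the nearest start from 9.61% to between 5.67 and 9.61%, within the window from 27.0% to between 10.5 and 24.5%, and WGATAR over all sites from 54.4% to between 52.3 and 70.9%. No paired analysis was possible because the results come from counts of sites and no test. Fragment numbers of 20 to 70 per summit limit what a missing peak can show.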
